A study of Mus musculus with 8 samples.

Results

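miR-126a is a microRNA (miRNA) whose hairpin gives a stable strand from each of its arms, miR-126a-3p and miR-126a-5p. Both strands, mmu-miR-126a-3p and mmu-miR-126a-5p, were taken by name from the miRNA counts of isolated mouse cardiomyocytes, 2 of the 697 mature miRNAs counted. The cells came from male mice that had undergone transverse aortic constriction (TAC), a surgical narrowing of the aorta that loads the left ventricle with pressure, or a sham operation, at an age of 2 months, and were isolated by Langendorff perfusion. The hearts were taken at 14 weeks, stated as the time since surgery in most places and as an age in another. Each of the 4 sham and 4 TAC libraries was made from total RNA of part of the cells of 1 mouse heart, and no genetic change, strain or further treatment is named in the sources used here. The methods name no sort after the perfusion.

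A miRNA is cut out of a hairpin transcript by Drosha and Dicer, and 1 strand of the resulting duplex is loaded into an Argonaute protein, where its seed, bases 2 to 8, pairs with target mRNAs. The other strand is usually degraded, and miR-126a is a known case in which both strands persist. It is the classical miRNA of endothelial cells, where it is made together with its host gene Egfl7, a secreted factor of blood vessel walls, and where miR-126a-3p favours vascular endothelial growth factor signalling by repressing Spred1 and Pik3r2, inhibitors of that pathway. In the heart, the capillary endothelium is its best known source.

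The hairpin Mir126a lies on the plus strand at chr2:26591357-26591429 (GRCm38). Of the 9 Egfl7 transcripts in GENCODE vM21 that span it, 8 hold it in an intron, which in the coding transcript Egfl7-202 runs between exons 7 and 8, and 1 transcript with a retained intron holds it in an exon. The hairpin is shown because it carries both members, and miR-19b-3p because the study normalized its values by that miRNA together with miR-126a-3p. In the hairpin the capitals mark miR-126a-3p, bases 46 to 67, and in the mature miRNAs they mark the seed. The sequences are those of RefSeq on GRCm38.p6.
Mir126a hairpin: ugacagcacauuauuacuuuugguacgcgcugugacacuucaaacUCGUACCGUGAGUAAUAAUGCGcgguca
miR-126a-3p: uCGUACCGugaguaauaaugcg
miR-19b-3p: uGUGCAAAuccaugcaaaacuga
miR-126a-5p is given by name only. The RefSeq table holds 1679 mature miRNAs, and 0 others share the seed of miR-126a-3p. Its sequence was found in 1 hairpin only, so tags of this strand have 1 hairpin of origin in that table. The sequence of miR-19b-3p is held by a hairpin on chromosome 14 and another on chromosome X, so its counts cannot be assigned to either.

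The libraries hold 4005668 to 7798943 miRNA counts. Levels are given as CPM, counts scaled to a common library size, by each library's miRNA total, unless they are said to be scaled by TMM, edgeR's trimmed mean of M-values. All 5 cardiomyocyte markers (miR-1a-3p, miR-133a-3p, miR-208a-3p, miR-208b-3p and miR-499-5p) were present, together at 160712 to 198133 CPM in sham and 194455 to 245941 CPM in TAC. Most of this sum was miR-1a-3p and miR-133a-3p, which averaged 108665 and 67356 CPM in sham. Presence of these markers does not show how pure the cells were. Library sham 1 stood apart from the other sham libraries. Over the miRNAs that averaged more than 100 counts, the ones tested throughout, its median absolute departure from the mean of the other 3 libraries of its group was 0.327 on the log2 scale of TMM-scaled CPM, against 0.149 to 0.251 in the other libraries. Results that rest on this library are given with and without it.

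Both strands of miR-126a were among the most abundant miRNAs of these cardiomyocyte preparations. miR-126a-3p ranked 12 of 697 by mean CPM, between let-7a-5p and miR-486a-5p. Each of these neighbours lay above it in 5 of the 8 libraries, so the order of the 3 is not fixed beyond their spread. miR-126a-5p ranked 17, between miR-30a-5p, above it in 6 libraries, and miR-24-3p, above it in 4. The rank of miR-126a-3p was 5 to 13 in the sham libraries and 15 in every TAC library, and that of miR-126a-5p was 15 to 18 in sham and 18 to 23 in TAC. Together the strands took 4.92%, 6.56%, 7.21% and 5.33% of all miRNA counts in sham mice 1 to 4 and 3.38%, 3.38%, 3.46% and 2.93% in TAC mice 1 to 4. An endothelial miRNA thus supplied a larger share of every sham library than of any TAC library.

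The level of miR-126a-3p, the strand long taken as the functional guide, was 25759, 43188, 50698 and 36421 CPM in sham mice 1 to 4. In TAC mice 1 to 4 it was 23249, 22374, 23630 and 20677 CPM. Sham 1 was the lowest sham library and came near the highest TAC library, yet the groups did not overlap, and the TAC libraries lay close together. By this scale the TAC libraries all lay below the sham libraries in 27.4% of the tested miRNAs and all above them in 3.59%, so this property was shared by many. The sham mean was 39017 ± 10588 CPM (SD, n = 4), against a TAC mean of 22483 ± 1313 CPM (SD, n = 4), with coefficients of variation of 27.1% and 5.84%. The difference of the mean log2 CPM was -0.75, a level 1.69-fold higher in sham (two-sided exact permutation test over 70 arrangements, p = 0.0286, the smallest that 4 libraries against 4 allow). Without sham 1 it was -0.94, and the coefficient of variation in sham was 16.4%.

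The level of miR-126a-5p, the strand that in endothelial cells is known to target Dlk1, was 23488, 22419, 21352 and 16874 CPM in sham mice 1 to 4. In TAC mice 1 to 4 it was 10563, 11408, 10928 and 8596 CPM. The groups were far apart, and sham 1, the lowest sham library in miR-126a-3p, was the highest of all in miR-126a-5p. The sham mean was 21033 ± 2907 CPM (SD, n = 4), against a TAC mean of 10374 ± 1234 CPM (SD, n = 4), a difference of the mean log2 CPM of -1.02, or a level 2.02-fold higher in sham (exact permutation test, p = 0.0286). The sum of both strands averaged 60050 ± 10602 CPM (SD, n = 4) among sham libraries, against 32856 ± 2415 CPM (SD, n = 4) after TAC, a difference of -0.86 on the log2 scale (exact permutation test, p = 0.0286). These are bulk libraries, in which fewer endothelial cells and less miR-126a per cell cannot be told apart.

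**Figure D1:**
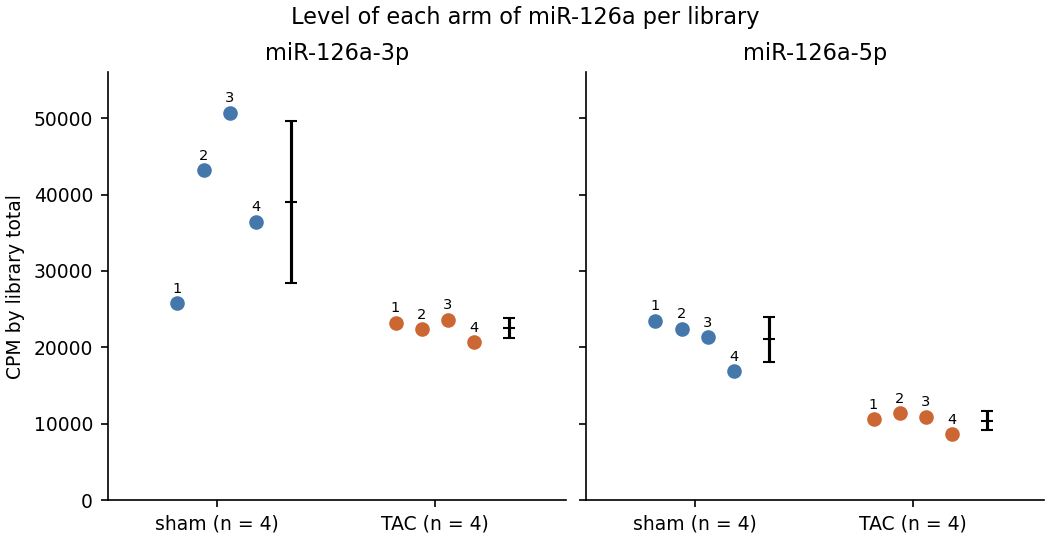
CPM by library total (vertical axis, from 0) of miR-126a-3p (left) and miR-126a-5p (right) in each sham and TAC library, numbered by mouse; bars are the mean and SD of 4 libraries. In both strands all TAC libraries lie below all sham libraries, and sham 1 is the lowest sham library at the left and the highest at the right; on TMM-scaled CPM the groups of miR-126a-3p overlap.

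CPM shares move when other miRNAs gain or lose, and in these libraries the muscle miRNA miR-1a-3p rose by 0.74 on the log2 scale under TMM (adjusted p = 0.0196 from edgeR), from 108665 to 158119 CPM on average. TMM scaling, which rests on the bulk of the miRNAs, was used for the test over all of them. It was chosen because the scaling of the study rests on miR-126a-3p itself. miR-126a-5p fell by 0.80 on the log2 scale in TAC (standard error 0.13, 95% confidence interval -1.09 to -0.52), a level 1.74-fold higher in sham (adjusted p = 0.00740 from edgeR's quasi-likelihood test with Benjamini-Hochberg adjustment). miR-126a-3p had a log2 fold change of -0.58 (standard error 0.18, 95% confidence interval -0.98 to -0.19, adjusted p = 0.0529 from edgeR) and did not pass the threshold of 0.05. Its sign turned, to 0.10 (95% confidence interval -0.30 to 0.50), when the TAC libraries were scaled to miR-19b-3p and miR-126a-3p, the references of the study. That scaling includes miR-126a-3p and brings it near 0 by construction, so the turned sign is no separate result. Under TMM, 1 of the 2 members was called lower, beside 8.52% of all tested miRNAs called lower and 4.93% called higher. With TMM-scaled CPM the groups of miR-126a-3p overlapped, since sham 1 had 23611 and the TAC libraries 21885 to 25252, while those of miR-126a-5p, 16873 to 21529 in sham and 9098 to 12876 in TAC, did not. On this scale the TAC libraries all lay below the sham libraries in 12.6% of the tested miRNAs.

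Under edgeR with TMM, where its adjusted p of 0.0529 was a near miss, the call of miR-126a-3p rested on sham 1. Without it the log2 fold change of miR-126a-3p was -0.70 (standard error 0.10, adjusted p = 0.00610 from edgeR), and that of miR-126a-5p was -0.71 (standard error 0.12, adjusted p = 0.00610 from edgeR). Both members then passed, with nearly the same size, beside 8.52% of all tested miRNAs called lower in that fit. With any other single library left out, miR-126a-3p stayed above the threshold, with adjusted p from 0.0722 to 0.120, and miR-126a-5p stayed below it, with adjusted p from 0.0132 to 0.0303.

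Other settings gave the same sign with TMM or DESeq2 scaling. DESeq2 called both members lower, miR-126a-3p at -0.53 (adjusted p = 0.0350) and miR-126a-5p at -0.76 (adjusted p = 7.00e-05), beside 9.87% of all tested miRNAs. With the 409 miRNAs that averaged more than 10 counts, or with all 695, edgeR called miR-126a-5p lower and miR-126a-3p not, beside 3.18% and 0.863% of the miRNAs called lower. Of the 20 miRNAs with the highest mean CPM, a count made after the values were seen, edgeR with TMM called 7 higher and 3 lower in TAC, the lower ones being miR-126a-5p, miR-30a-5p and miR-30e-5p. The higher ones include miR-486a-5p and miR-486b-5p, whose log2 fold changes were both 0.52 in this fit. Their means were 26563 and 26506 TMM-scaled CPM, so these 2 may not be separate in the counts. Over all tested miRNAs this fit called 4.93% higher and 8.52% lower. Ordered by log2 fold change from the lowest, miR-126a-5p ranked 14 and miR-126a-3p 29 of all tested miRNAs.

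**Figure D2:**
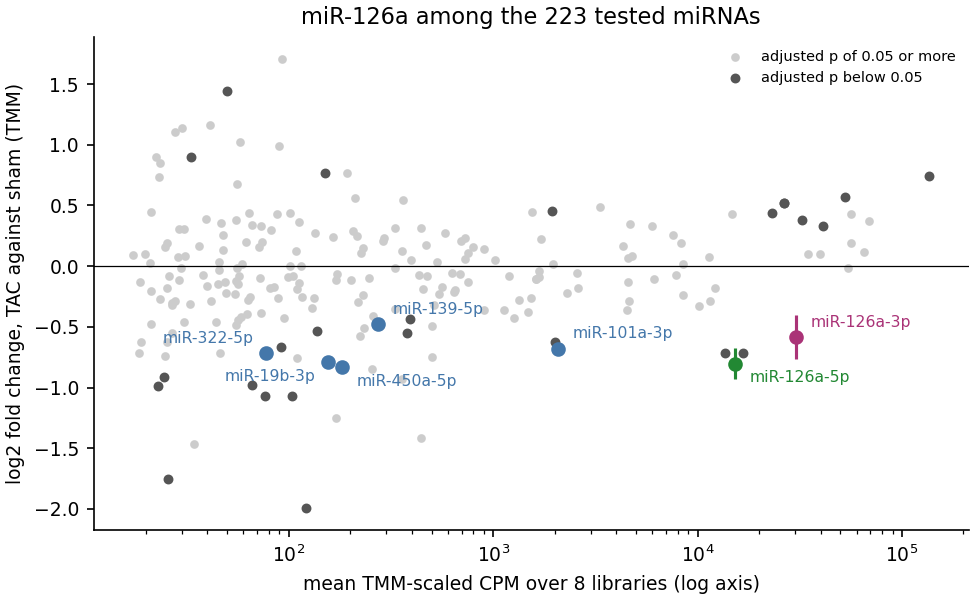
Mean TMM-scaled CPM over 8 libraries (horizontal, log axis) against the log2 fold change of TAC against sham from edgeR with TMM (vertical) for all tested miRNAs; dark points have an adjusted p below 0.05 and bars on the miR-126a strands are 1 standard error. Both strands lie at the abundant end and below 0, at -0.58 and -0.80. Scaled to the reference pair, which brings it near 0 by construction, miR-126a-3p would lie at 0.10.

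The direction for miR-126a-3p, and the size for both strands, depends on the scale, and the study took as references miR-126a-3p itself and miR-19b-3p, a member of the miR-17-92 cluster, with a check by quantitative PCR that is not analysed here. By library totals the log2 fold changes were -0.80 for miR-126a-3p (adjusted p = 0.0134 from edgeR) and -1.02 for miR-126a-5p (adjusted p = 0.00158 from edgeR), where 20.6% of all tested miRNAs were called lower and 1.35% higher. With the TAC libraries scaled by a single factor from both references, they were 0.10 (adjusted p = 0.628 from edgeR) and -0.12 (adjusted p = 0.430 from edgeR), where 63.7% of all tested miRNAs were called higher and 0.897% lower. This scaling brings miR-126a-3p near 0 by construction. The median of all tested miRNAs shifted with the scale, to -0.082 under TMM, -0.29 by library totals and 0.61 with the reference pair. Relative to that median, miR-126a-3p lay at -0.50 under each of these 3 scalings, and miR-126a-5p at -0.72 under TMM and at -0.73 under the other scalings. A single factor per library shifts the log2 fold changes of all miRNAs by about the same amount. The ranks of 14 and 29, the same in all 3 fits, and the near-equal distances from the median follow from this. They are therefore no separate evidence.

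**Figure D3:**
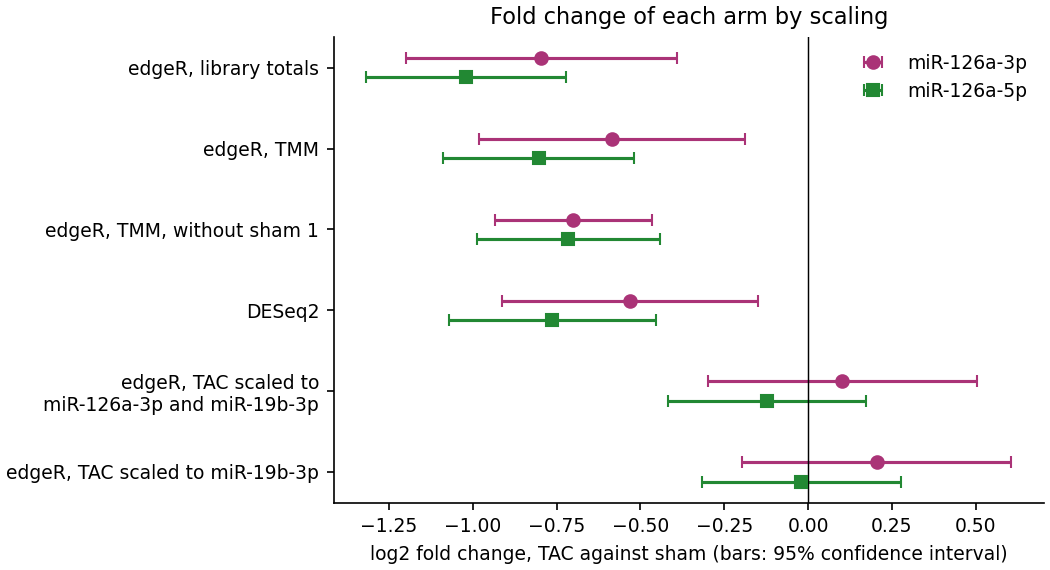
Log2 fold change of TAC against sham (horizontal) of miR-126a-3p (circles) and miR-126a-5p (squares) under 6 settings, with 95% confidence intervals. Library totals, TMM and DESeq2 place both strands below 0, and scaling the TAC libraries to miR-19b-3p or to the reference pair places both near 0, with miR-126a-3p above it.

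miR-19b-3p, the other reference, had 178, 261, 220 and 193 CPM in sham mice 1 to 4. In TAC mice 1 to 4 it had 103, 92.6, 92.6 and 138 CPM. It fell by 0.79 on the log2 scale under TMM (standard error 0.18, adjusted p = 0.0196 from edgeR), close to miR-126a-5p. With sham 2, sham 3, TAC 2 or TAC 3 left out it no longer passed, with adjusted p from 0.0504 to 0.0601. The count ratio of miR-126a-3p to miR-19b-3p ran from 145 to 230 in sham and from 150 to 255 in TAC, so the groups overlapped and neither reference was constant against the other within a group. The ratio of miR-126a-5p to miR-19b-3p ran from 85.9 to 132 in sham and from 62.4 to 123 in TAC, and these groups overlapped as well. The 132 was that of sham 1. Without it the sham ratios ran from 85.9 to 96.9, below those of TAC 1 to 3 at 102 to 123, and the overlap then rested on TAC 4 at 62.4.

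The strand chosen as reference changed how many of the tested miRNAs edgeR called higher in TAC. The factor for the TAC libraries was 0.576 from miR-126a-3p, 0.493 from miR-126a-5p, 0.547 from both strands summed, 0.50 from miR-19b-3p and 0.537 from the reference pair. At an adjusted p below 0.05, 114 miRNAs (51.1%) were called higher with miR-126a-3p as the reference and 161 (72.2%) with miR-126a-5p. Both strands summed gave 135 (60.5%), miR-19b-3p 160 (71.7%) and the pair 142 (63.7%), while 1 (0.448%) or 2 (0.897%) were called lower with each of these references. Without sham 1 the factors from the strands came to 0.518 and 0.513, and 159 and 162 miRNAs were called higher, where TMM called 23. These counts describe what each choice of reference does as a single factor for all TAC libraries, since the factor is computed from the groups. The spread of a reference between libraries did not enter these fits, and scaling each library by its own reference count was not part of them.

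The ratio of the strands within a library is free of any scaling factor. The count of miR-126a-3p over that of miR-126a-5p was 1.10, 1.93, 2.37 and 2.16 in sham mice 1 to 4. In TAC mice 1 to 4 it was 2.20, 1.96, 2.16 and 2.41. In 7 libraries the 3p strand was thus the more abundant by a similar factor, and in sham 1 the strands were nearly equal. In sham 1, 119220 of 227929 counts on the hairpin came from the 3p strand, a share of 52.3% (95% Wilson interval 52.10% to 52.51%), and in the other 7 libraries the share was 65.8% to 70.6%. The interval covers counting error only and takes each count as a separate molecule. PCR copies of a tag cannot be told from separate molecules, so it may be too narrow even for that error.

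Between the groups the ratio did not differ beyond the spread of the libraries. The sham log2 ratio averaged 0.86 ± 0.50 (SD, n = 4), against 1.12 ± 0.12 (SD, n = 4) for TAC, a difference of 0.26 (two-sided exact permutation test, p = 0.343). Without sham 1 it was 1.10 ± 0.15 (SD, n = 3) in sham, and the difference was 0.021 (exact permutation test, p = 0.686, where the smallest possible is 0.0571). The same ratio was fitted with limma over the 43 hairpins whose strands both averaged more than 100 counts. The groups did not overlap in 9.3% of them, while those of miR-126a did. There 11.6% of the hairpins had a higher ratio in TAC at an adjusted p below 0.05 and 0 a lower one, with 10 of the 43 at an unadjusted p below 0.05. miR-126a was not among the called hairpins, with a difference of 0.26 (95% confidence interval -0.20 to 0.72, adjusted p = 0.514 from limma), rank 20 of 43 by size. Without sham 1 the interval was -0.37 to 0.41, and differences inside it are not excluded by these libraries.

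Most of these hairpins were less even than miR-126a. The median hairpin of the 43 had an absolute log2 ratio of 3.46, and miR-126a, at 0.99 over the 8 libraries, ranked 8 of 43 by evenness, with 13 hairpins within a factor of 4. Its lesser strand, miR-126a-5p, averaged 15704 CPM, the highest of any lesser strand among the 43. The next were those of miR-145a with 1716 CPM, miR-199a with 1628 CPM and miR-133a with 1277 CPM. On TMM-scaled CPM miR-199a-3p and miR-199b-3p averaged 1612 and 1611, so the value given for miR-199a may not belong to it alone. By the sum of both strands miR-126a ranked 4 of these 43, which do not include abundant miRNAs such as miR-1a-3p and miR-99a-5p.

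The shift in sham 1 was large among the same hairpins but not confined to miR-126a. Its log2 ratio lay 0.97 below the mean of the other 3 sham libraries, a departure exceeded in size by 2 of the 43 hairpins, miR-1843b (-1.92) and let-7d (-1.07). Those next in size were miR-340 (-0.96) and miR-22 (-0.95). In these 5 hairpins the ratio of sham 1 was below that of every other library, TAC libraries included. They were picked by the size of the departure from the other sham libraries, so lying apart from those was part of the choice. Departures upward occurred as well, with miR-335 at 0.79. Over all 43 hairpins the ratio was lower in sham 1 than in the mean of the other sham libraries in 27, with a median departure of -0.14. In level, miR-126a-3p in sham 1 departed by -0.77 from the other sham libraries on the log2 scale of TMM-scaled CPM, and 28 of the tested miRNAs departed further, whereas miR-126a-5p departed by 0.20. In the other libraries the departure of the miR-126a ratio ran from -0.20 to 0.52. The last of these values was that of sham 3, where 0 of the other hairpins departed further, but it was taken from a mean that includes sham 1. Against sham 2 and sham 4 alone, the ratio of sham 3 departed by 0.22, and 18 of the 43 hairpins departed further.

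**Figure D4:**
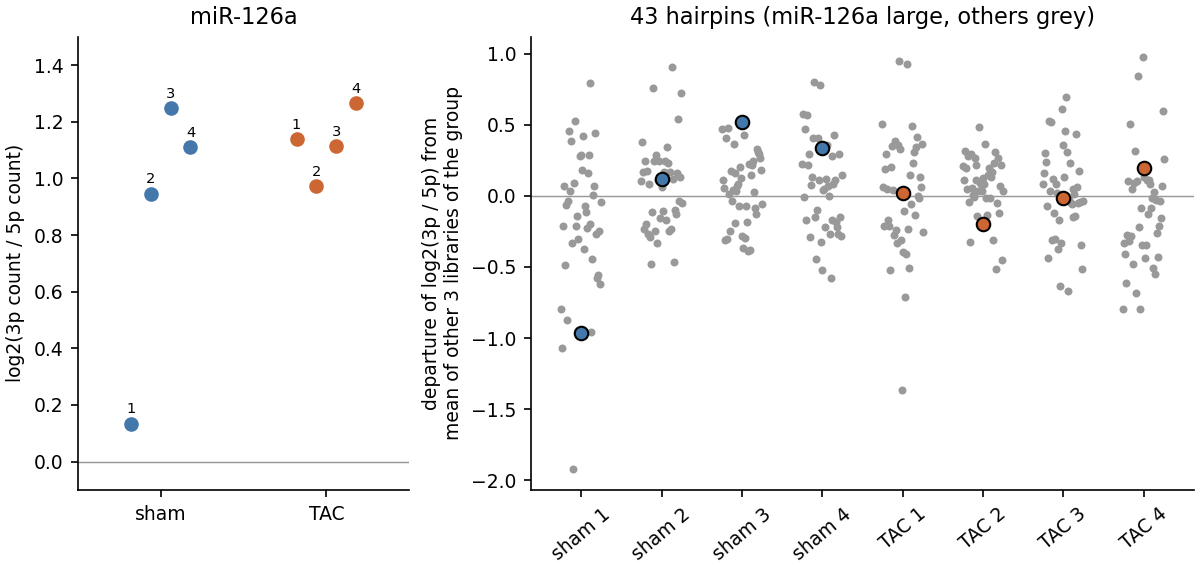
Left, log2 of the count of miR-126a-3p over that of miR-126a-5p in each library, numbered by mouse; right, for each library the departure of that log2 ratio from the mean of the other 3 libraries of its group, for miR-126a (large points) and the other 42 hairpins (grey). miR-126a in sham 1 lies at 0.13 at the left and at -0.97 at the right, and its other 7 ratios lie between 0.95 and 1.27.

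Markers of other cells were set beside these levels, each list as summed CPM. The smooth muscle pair (miR-143-3p and miR-145a-5p) had 35673 to 42565 CPM in sham and 32909 to 36803 in TAC, and the 3 fibroblast miRNAs (miR-199a-3p, miR-199a-5p and miR-214-3p) had 6028 to 8283 and 3787 to 7345, so neither separated the groups. The 3 erythroid miRNAs (miR-451a, miR-144-3p and miR-144-5p) had 418 to 1503 CPM in sham and 43.8 to 550 in TAC, and the 4 leukocyte miRNAs (miR-142a-3p, miR-142a-5p, miR-223-3p and miR-150-5p) 1195 to 2360 and 937 to 1332. The sums of the latter lists overlapped between the groups as well. Their tested members, 2 of 3 and 3 of 4, all had negative log2 fold changes under TMM, with medians of -1.33 and -0.74, but 0 passed an adjusted p of 0.05 in edgeR. The 3 fibroblast miRNAs were likewise all negative, with a median of -0.11. Among all tested miRNAs 43.5% had a positive log2 fold change in that fit. The 6 epithelial miRNAs had 242 to 401 CPM in sham and at most 1406 in TAC, and these groups overlapped. None of these markers was at 0 in all libraries. Sham 1 had the lowest sum of all sham libraries for the erythroid, leukocyte, fibroblast and smooth muscle lists and for miR-126a, and the highest for the cardiomyocyte list, 198133 CPM. The strands of miR-126a went opposite ways there, with miR-126a-3p the lowest in sham and miR-126a-5p, at 23488 CPM, the highest of all libraries. The epithelial sum of sham 1, 316 CPM, was not the lowest in sham. The part of such differences in the change of miR-126a was not tested.

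Vessel growth involves further miRNAs, and 22 of them were listed, of which 17 were tested. In edgeR with TMM, 4 were lower and 2 higher in TAC, where 8.52% and 4.93% of all tested miRNAs were, with a median log2 fold change of -0.14 beside -0.082 over all tested miRNAs. The lower ones were miR-20a-5p (-1.07, adjusted p = 0.0417 from edgeR), miR-19b-3p, miR-322-5p (-0.72, adjusted p = 0.0196) and miR-10a-5p (-0.62, adjusted p = 0.0196). The miR-17-92 cluster, which drives cell proliferation, encodes miR-20a-5p and miR-19b-3p, but the latter also has a hairpin on chromosome X. miR-322-5p is the mouse counterpart of the hypoxia-linked human miR-424. miR-10a-5p is encoded in a Hox cluster and known to restrain endothelial inflammation. The higher ones were miR-23b-3p (0.45, adjusted p = 0.0196) and miR-27b-3p (0.57, adjusted p = 0.0263), both of 1 cluster. miR-221-3p and miR-222-3p, which act on endothelial Kit, had 0.43 (adjusted p = 0.166) and 0.56 (adjusted p = 0.123) and did not pass. The median of the list was near that of all tested miRNAs, while both strands of miR-126a lay lower.

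To find the miRNAs whose pattern over the libraries was most like that of each strand, the SD over the 8 libraries of the log2 count ratio to the strand was used, a measure that no scaling factor moves. It is a description without a test, and the points are libraries that differ in group. For miR-126a-3p the nearest of the 222 others were miR-139-5p (SD 0.148), miR-322-5p (0.208), miR-24-2-5p (0.215), miR-676-3p (0.219) and miR-224-5p (0.225), where the median over all was 0.497. Its own partner miR-126a-5p ranked 55 with 0.365, behind miR-19b-3p at rank 32 with 0.323. Without sham 1 the partner moved to rank 4 with 0.123, and 2 of the 5 nearest, miR-139-5p and miR-322-5p, stayed among the 5 nearest, the latter with its SD lowered to 0.0979.

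For miR-126a-5p the nearest were miR-450a-5p (SD 0.115), miR-101a-3p (0.139), miR-362-5p (0.170), miR-322-5p (0.188) and miR-351-5p (0.205), where the median was 0.540. Without sham 1, 4 of the 5 stayed, miR-450a-5p at 0.0713 and miR-322-5p at 0.109, and miR-126a-3p entered at rank 3. miR-450a-5p went from 253 ± 56.6 CPM (SD, n = 4) in sham to 122 ± 13.3 CPM (SD, n = 4) in TAC, and miR-101a-3p, which targets the chromatin regulator Ezh2, from 2743 ± 196 CPM (SD, n = 4) to 1479 ± 135 CPM (SD, n = 4). Of these 5 miRNAs, miR-322-5p, miR-351-5p and miR-450a-5p are encoded within a few kilobases on the minus strand of chromosome X. Mature sequences from RefSeq of these 3, of miR-101a-3p and of miR-139-5p, the nearest to miR-126a-3p, are shown with the seed in capitals, to compare them with miR-126a-3p.
miR-139-5p: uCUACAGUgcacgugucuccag
miR-322-5p: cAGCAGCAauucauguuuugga
miR-450a-5p: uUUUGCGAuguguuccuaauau
miR-351-5p: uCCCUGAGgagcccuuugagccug
miR-101a-3p: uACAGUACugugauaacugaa
None of these shares a seed with another or with miR-126a-3p, and none lies on its chromosome.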

How the data were processed

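Small RNA of 8 cardiomyocyte preparations was sequenced. The authors deposited whole-number counts per mature miRNA, 1 table per library, without normalization. The submitters' processing notes name mm10; the aligner, and how tags that fit several miRNAs were assigned, are not given in the sources used here. Groups came from the sample labels, and the methods describe them as 4 pairs of sham and TAC mice, without tying a pair to a replicate number. No 2 tables were copies: at least 588 of 697 miRNAs differed in each of 28 pairs. The main test was edgeR 4.0.16 in R 4.3.3 (glmQLFit and glmQLFTest, group as the only term, TMM) with Benjamini-Hochberg adjustment, on miRNAs averaging over 100 counts. TMM replaced the scaling of the study, which rests on miR-126a-3p itself. Standard errors were derived from the fold change and its F value. Strand ratios were tested by exact permutation over 70 arrangements of the libraries. Over 43 hairpins with strands matched by name they were also tested with limma 3.58.1, on log2 ratios with a pseudocount of 0.5. The edgeR and limma tests were tried on simulated data. There limma met less noise than in the sham libraries, and edgeR 1 common variation for all miRNAs. Such trials do not measure how the tests perform on these data. Alternatives were library totals, reference scalings, DESeq2 1.42.0, other count filters, the study's fold change of 1.7, a replicate block and each library left out. Leaving sham 1 out of the likeness, the coefficients of variation and the departures of single libraries was chosen after seeing the data. The members, lists and rules were chosen with earlier results of these data known. The miRNAs named were both members, miR-19b-3p, the neighbours in level, the 5 nearest in pattern to each strand, the hairpins that departed most in sham 1, and the marker and vascular lists. Each strand had at least 58173 counts per library, so counting error was small beside the biological coefficient of variation (common value 0.254).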

Additional observations from a re-analysis of the deposited data

Results flagged for a closer look

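The summed level of both strands in TAC 4, 29274 CPM, lay farther below the other TAC libraries (33782 to 34557 CPM) than Dixon's 95% critical value for 4 samples allows, with a gap of 0.853 of the range. The test was applied to 10 sets of 4 libraries and chance marks about 1 in 20. TAC 4 also had the highest miR-19b-3p of the TAC libraries, 138 CPM. Without TAC 4 the log2 difference of the sum between the groups was -0.80, against -0.86 with it. The strand ratio of sham 1 did not pass, with a gap of 0.729 of the range.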

How the results depend on the processing

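The direction for miR-126a-3p rested on the scale, and its call on the scale and on sham 1. For miR-126a-3p the log2 CPM difference with TMM was -0.55 (exact permutation test, p = 0.114). Its edgeR log2 fold change, -0.58, passed by library totals (-0.80) and in DESeq2 (-0.53), and turned to 0.10 with the reference pair and 0.20 with miR-19b-3p as reference, which fix the reference itself near 0 by construction. For miR-126a-5p these references gave -0.12 and -0.020, no longer past the threshold. miRNAs called higher, 11 under TMM, numbered 3 by library totals, 142 with the pair, 160 with miR-19b-3p, 19 in DESeq2, 19 with a mean above 10 and 3 with a fold above 1.7. Those called lower, 19 under TMM, numbered 46, 2 and 1 for the first 3 settings, 6 without a filter and 10 with the fold. Hairpins with a changed strand ratio, 5 higher and 0 lower, became 0 and 2 with a mean above 10.

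Same-numbered sham and TAC mice did not deviate together (correlations of 0.168, -0.371, 0.314 and -0.218), which gave no sign of pairing by number. With the replicate block, edgeR called 4 higher and 9 lower, limma called 3 hairpins higher, miR-126a-3p had -0.55 (adjusted p = 0.0798 from edgeR), miR-126a-5p -0.81 (adjusted p = 0.00976 from edgeR) and the log2 strand ratio 0.26. The call of miR-19b-3p was lost with the block (-0.80, adjusted p = 0.0524 from edgeR) although its fold change was close to the -0.79 without it, and also without a filter (-0.64, adjusted p = 0.0850) and with a mean above 10 (-0.69, adjusted p = 0.0535).

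With each library left out, the log2 CPM difference ran from -0.94 to -0.61 for miR-126a-3p, -1.12 to -0.93 for miR-126a-5p and -0.95 to -0.76 for their sum, each at an exact permutation p of 0.0571, the smallest that 4 against 3 allows. The edgeR fold change of miR-126a-3p ran from -0.70 without sham 1 to -0.44 without sham 3, and that of miR-126a-5p from -0.88 to -0.69. The count called higher ran from 2 without TAC 2 to 23 without sham 1, and lower from 8 to 19. With miR-126a-3p as reference, 58 without sham 3 to 159 without sham 1 were called higher, and with each reference 1 to 3 lower (1 to 2 for miR-126a-5p and for miR-19b-3p). Hairpins called higher ran from 3 to 7 and lower from 0 to 1. The causes were not tested. With 4 libraries a group, smaller differences may have been missed.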
